A study of Homo sapiens with 4 samples.

Results

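NRF2 ChIP-Seq summits next to the centromeres were examined in MDA-MB-231 mammospheres, which are spheres of a breast cancer line of human origin. A summit is the base at which a called peak has its highest signal, and each library has its own list of them. Pericentromeric summits were chosen by position alone. They are the summits within 3.5 Mb of the midpoint of the centromere gap of chromosomes 1 to 22 in the hg19 assembly, together with those in a short stretch of chromosome 16 at the far end of the unsequenced heterochromatin of its long arm. The 4 lists held 9717 summits in all, of which 740 were pericentromeric.

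The study compared NRF2 binding in SC (scrambled control) and ZMYND8 KO mammospheres, with 2 libraries each. The labels call the SC genotype parental, while the titles and the paper use SC. All 4 libraries came from spheres grown in MammoCult on ultralow attachment dishes with no treatment named, and the same NRF2 antibody was used throughout. How ZMYND8 was deleted in these cells, whether the ZMYND8 KO line was 1 clone, and whether the 2 libraries of a group came from separate cultures are not given in the sources used here, so the spread within a group may be technical. A summit list holds neither expression nor read counts, so the cell line, the loss of ZMYND8 and the depth of each library could not be checked from it. No input or IgG library was analysed here.

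NRF2 pairs with small MAF proteins and binds antioxidant response elements at the promoters of antioxidant genes. ZMYND8 is a chromatin reader that recognizes acetylated histones. Centromeres of human chromosomes are built on long arrays of alpha satellite, flanked by other satellite families and by segments that are duplicated between chromosomes. Older assemblies such as hg19 leave most of each array as a gap and keep only short stretches of satellite at its borders. Reads from the many copies that are missing from an assembly can be placed on the few copies that are present, and whether that happened in these libraries was not tested. The sequence under the summits was not analysed here, because no genome or gene annotation of this build was used, so positions are given without gene names.

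The lists spared the gaps of hg19. Of the 9717 summits, 0 lay within 1.4 Mb of a gap midpoint. On all 18 chromosomes with summits on both sides, the stretch without a summit was at least 3 Mb long. It was shortest on chromosomes 8 and 17, where it ran from 43838705 to 46839895 on chromosome 8 and from 22262696 to 25263167 on chromosome 17. Coordinates below are therefore given as hg19 positions counted from 1.

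Pericentromeric summits were crowded at the borders of the gaps. In the zone up to 1.6 Mb from a midpoint, which is the first stretch of sequence beside the gap, the SC lists had 133 (replicate 1) and 147 (replicate 2) summits and the ZMYND8 KO lists 86 (replicate 1) and 84 (replicate 2). This zone held 68.9%, 44.3%, 78.9% and 79.2% of the pericentromeric summits of the 4 lists in that order. The next zone, up to 2.5 Mb, held 38, 99, 18 and 21 summits. Farther out, up to 3.5 Mb, there were 16 and 77 in the SC lists and 2 and 1 in the ZMYND8 KO lists. The ratio of the group means, ZMYND8 KO over SC, was 0.607 in the zone at the gap, 0.285 in the middle zone and 0.0323 in the outer one. The middle and outer ratios rested on SC replicate 2, without which they were 0.513 and 0.0938. Without SC replicate 1 the outer ratio was 0.0195. The zones were drawn after the positions had been seen.

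**Figure D1:**
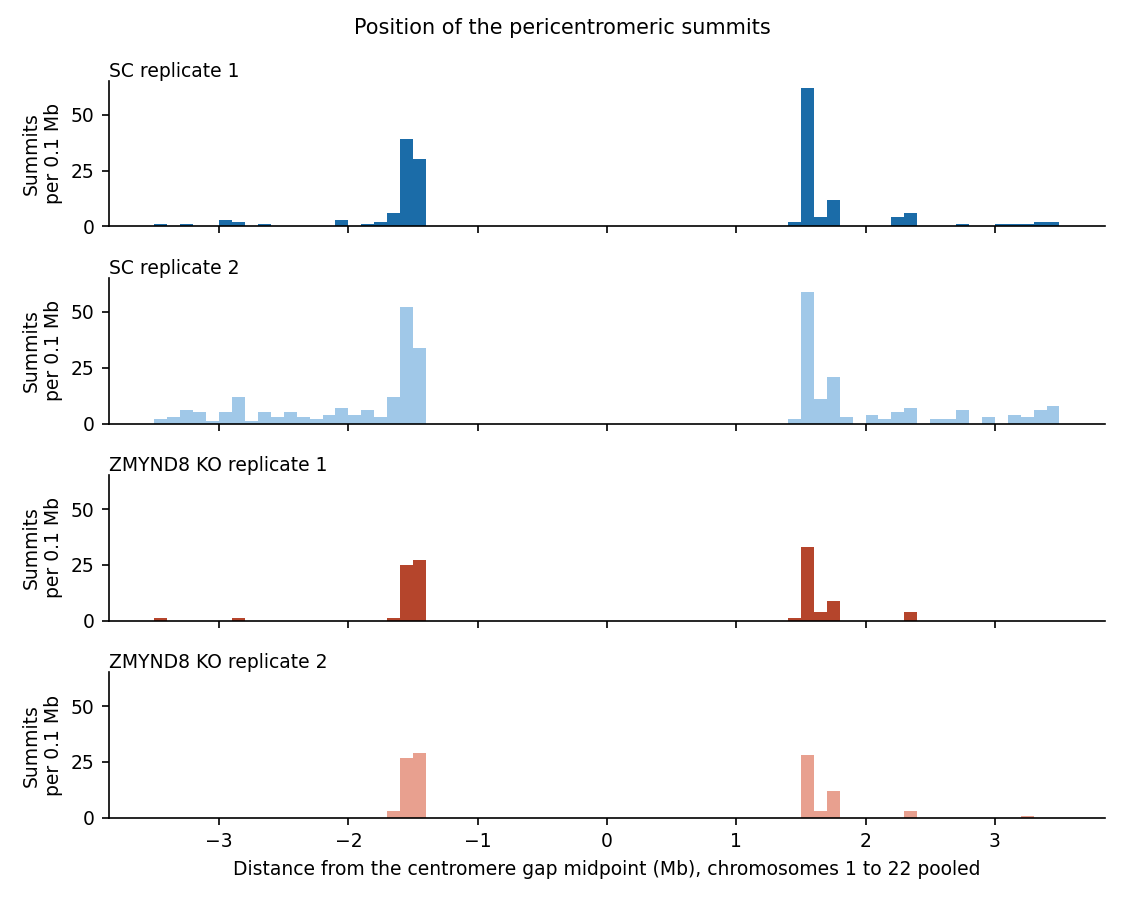
Pericentromeric summits per 0.1 Mb (vertical axis, count) by distance from the centromere gap midpoint in Mb (horizontal axis, minus on the short arm side), for chromosomes 1 to 22 pooled and 1 panel per library, without the added stretch of chromosome 16. The bars of all 4 libraries stand at the borders of the empty gap, and bars farther out come mainly from SC replicate 2.

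Pericentromeric summits took a larger share of the ZMYND8 KO lists than of the SC lists. SC replicate 1 had 193 of 2030 summits there (9.51%, Wilson 95% interval 8.31% to 10.9%) and SC replicate 2 had 332 of 6816 (4.87%, 4.38% to 5.41%). ZMYND8 KO replicate 1 had 109 of 394 (27.7%, 23.5% to 32.3%) and ZMYND8 KO replicate 2 had 106 of 477 (22.2%, 18.7% to 26.2%). Both ZMYND8 KO shares lay above both SC shares, and the intervals, which cover counting error only, did not overlap between the groups. The mean share was 7.19% ± 3.28 (SD, n = 2) in SC and 24.9% ± 3.85 (SD, n = 2) in ZMYND8 KO, a difference of 17.8 percentage points (two-sided p = 0.33 by an exact permutation of the libraries, which cannot go lower with 2 per group). The same bound holds for every test between the groups below.

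The larger share went with a smaller number of summits. SC held 262.5 ± 98.3 pericentromeric summits (SD, n = 2) and ZMYND8 KO 107.5 ± 2.12 (SD, n = 2), a ratio of 0.410, with ratios of single libraries from 0.319 to 0.565. All other summits numbered 4160.5 ± 3286 (SD, n = 2) in SC and 328 ± 60.8 (SD, n = 2) in ZMYND8 KO, a ratio of 0.0788, with single ratios from 0.0440 to 0.202. The ratio near centromeres was thus 5.19 times that of the rest of the genome, and the 2 ranges of single ratios did not overlap (exact permutation test on the odds of a summit being pericentromeric, two-sided p = 0.33). It was 3.12 times without SC replicate 2. In bulk chromatin, a lower signal per cell and fewer cells with signal cannot be told apart. The lists also differ in length, and longer lists reach further into low scores, so the share was taken again on lists of equal length.

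Counting only the 300 highest-scoring of every list, the SC lists had 72 (24.0%) and 75 (25.0%) near centromeres and the ZMYND8 KO lists 92 (30.7%) and 86 (28.7%). The order of the groups was kept, while the difference came down from 17.8 to 5.17 percentage points. With summits that scored at least 10, the shares were 20.7% and 18.6% in SC and 36.7% and 33.3% in ZMYND8 KO, a difference of 15.4 percentage points. That threshold does not correct for depth, which is unknown. What part of the difference in share comes from list length alone was not tested.

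**Figure D2:**
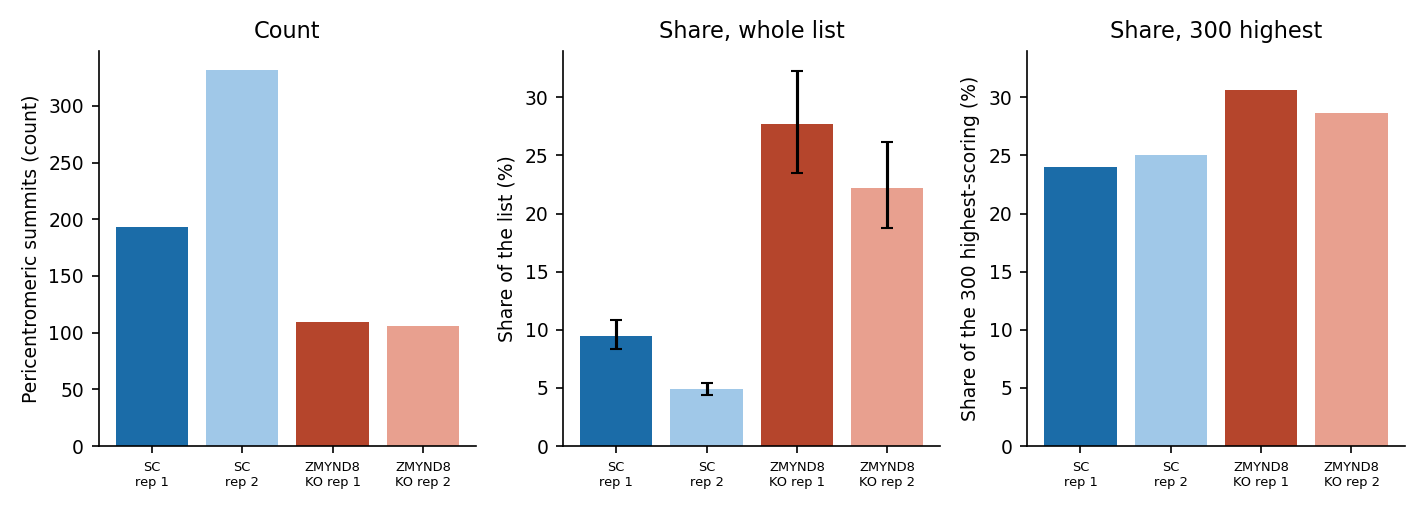
Pericentromeric summits per library as a count (left), as a share of the whole list in percent with Wilson 95% intervals as bars (middle), and as a share of the 300 highest-scoring summits in percent (right). ZMYND8 KO libraries have the lower counts and the higher shares, and the groups lie closer together on the right (24.0% and 25.0% against 30.7% and 28.7%) than in the middle.

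These summits ranked high in every list. The score that the peak caller gave each summit was read as the −log10 of its q-value, and its size depends on depth, so scores were ranked within a list. The median score of pericentromeric summits was 10.2 (replicate 1) and 5.47 (replicate 2) in SC, and 15.4 (replicate 1) and 14.6 (replicate 2) in ZMYND8 KO. All other summits of the same lists had medians of 5.66, 3.65, 8.63 and 8.31, lower in each case. Expressed as the percentage of the list that ranks at or above it, the median pericentromeric summit stood at 22.5% and 24.8% in the SC lists and at 30.7% and 27.6% in the ZMYND8 KO lists, while the other summits had medians between 50.9% and 56.1%. The means of these medians were 23.6% ± 1.6 (SD, n = 2) in SC and 29.1% ± 2.22 (SD, n = 2) in ZMYND8 KO (exact permutation test, two-sided p = 0.33). On lists of the 300 highest-scoring summits the difference of 5.50 percentage points turned to -5.83. Above the median score of their own list lay 72.5%, 69.3%, 66.1% and 72.6% of them, with overlap between the groups.

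They were a smaller part of the 20 highest-scoring summits than of the 100 highest-scoring in every list. Among the 20 highest-scoring summits the SC lists had 3 and 1, ZMYND8 KO replicate 1 had 0 and its replicate 2 had 5. Among the 100 highest-scoring there were 32 in each SC list, and 45 and 43 in the ZMYND8 KO lists. This was 16.6% and 9.64% of the pericentromeric summits of the SC lists, beside 4.93% and 1.47% of all their summits. In the ZMYND8 KO lists it was 41.3% and 40.6%, beside 25.4% and 21.0% of all summits. The 2 SC libraries thus had the same count, and both ZMYND8 KO libraries had more (exact permutation test, two-sided p = 0.33).

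**Figure D3:**
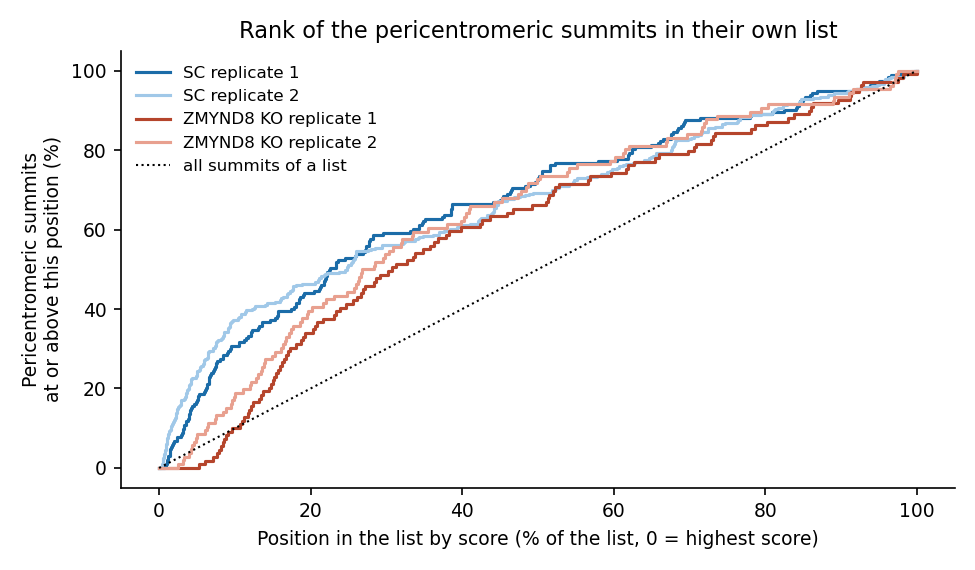
Cumulative share of pericentromeric summits (vertical axis, percent) found at or above each position of their own list by score (horizontal axis, percent of the list, with the highest score at 0), 1 line per library, with a dotted line for a list without any preference. All 4 lines run above the dotted line over most of the axis, with medians between 22.5% and 30.7%, and the lines of both ZMYND8 KO libraries start below it, with their first pericentromeric summits at ranks 21 and 12.

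Most pericentromeric summits of ZMYND8 KO mammospheres had a counterpart in SC, and SC summits had one in ZMYND8 KO more often near centromeres than over the whole list. A counterpart is a summit of either list of the other group within 200 bp. It was found for 100 of the 109 summits of ZMYND8 KO replicate 1 (91.7%, Wilson 95% interval 85.0% to 95.6%) and for 100 of the 106 of replicate 2 (94.3%, 88.2% to 97.4%), beside 91.1% and 88.1% of all summits of these lists, so over the whole list their share was near the background. At ranks 21 to 100 it was lower, with 39 of 45 in ZMYND8 KO replicate 1 against 35 of 35 other summits. In replicate 2 these ranks had 34 of 38 and 42 of 42. At ranks 101 to 300 the pericentromeric share was higher (95.7% and 97.7%, against 91.5% and 89.8% of other summits). The same held from rank 301 on (94.1% and 95.0%, against 83.1% and 77.7%). In SC replicate 1, 106 of 193 had a ZMYND8 KO counterpart (54.9%, 47.9% to 61.8%), beside 22.2% of all its summits. In SC replicate 2 these were 120 of 332 (36.1%, 31.2% to 41.4%), beside 7.00% of all. Both SC shares were above their backgrounds by more than the counting intervals, which treat summits as independent.

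At equal rank the pericentromeric share was still the higher one in both SC lists at ranks 101 to 300 and 301 to 1000. Among the 20 highest-ranking, where pericentromeric summits were few, 1 of 3 in SC replicate 1 had a ZMYND8 KO counterpart, and 17 of 17 other summits. In SC replicate 2 these were 1 of 1 and 18 of 19. At ranks 21 to 100, 29 of 29 pericentromeric summits of SC replicate 1 had a ZMYND8 KO counterpart, as had 50 of 51 other summits. In SC replicate 2 these were 31 of 31 and 47 of 49, so nearly all summits of both kinds had one. At ranks 101 to 300, SC replicate 1 had 34 of 40 (85.0%) and 99 of 160 (61.9%). In SC replicate 2 these ranks had 34 of 43 (79.1%) and 100 of 157 (63.7%). At ranks 301 to 1000, 40 of 66 pericentromeric summits of SC replicate 1 had one (60.6%), and 133 of 634 other summits (21.0%). In SC replicate 2 the same ranks gave 40 of 63 (63.5%) and 107 of 637 (16.8%). Below rank 1000 the shares were 3.64% and 4.72% in SC replicate 1 and 7.22% and 1.51% in SC replicate 2. Summits of a list share their library, so no test was made over them.

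**Figure D4:**
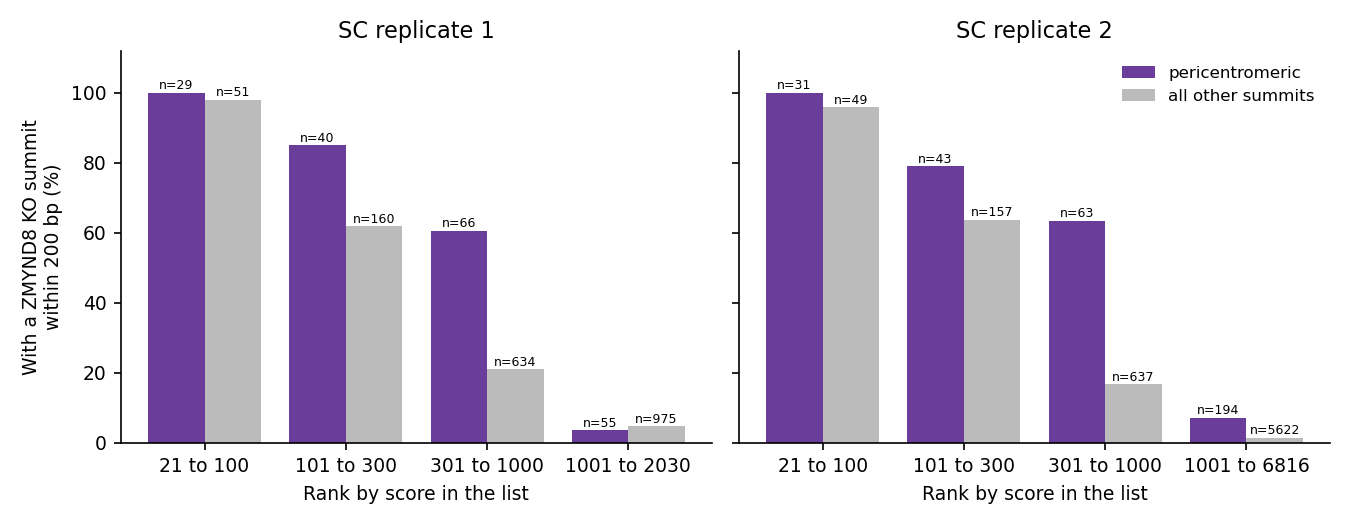
Percentage of SC summits that had a counterpart from either ZMYND8 KO list within 200 bp (vertical axis, percent) by rank in the list (horizontal axis), for pericentromeric summits and all other summits, 1 panel per SC library, with the number of summits above each bar. Both kinds are near 100% at ranks 21 to 100, and of the ranks drawn the gap is widest at 301 to 1000 (60.6% against 21.0% and 63.5% against 16.8%).

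Spacing bears on these matches. The median distance from a pericentromeric summit to the nearest summit of the same list was 877 and 1120 bp in SC and 1023 and 938 bp in ZMYND8 KO. Other summits had medians of 75865 and 21907.5 bp in SC, and over 1 Mb in both ZMYND8 KO lists. Within 5 kb of another summit of their list lay 83.9%, 67.2%, 89.9% and 92.5% of the pericentromeric summits of the 4 lists. For the other summits these shares were 37.1%, 37.3%, 18.2% and 15.4%. In such crowded stretches a summit of another list falls within 200 bp more easily than elsewhere. Matches were therefore also counted at 10 bp.

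The matched positions were close to the same base. The median offset between a pericentromeric summit and its counterpart was 3 and 6 bp in the SC lists and 3 bp in both ZMYND8 KO lists. For other matched summits it was 22, 24, 18 and 19.5 bp. Within 10 bp lay the counterparts of 82 pericentromeric summits of SC replicate 1 (42.5% of them, beside 9.70% of all its summits) and of 72 of SC replicate 2 (21.7%, beside 2.60%). In ZMYND8 KO these were 72 of replicate 1 (66.1%, beside 42.9%) and 82 of replicate 2 (77.4%, beside 39.8%). In the SC lists the pericentromeric share was above the background of the list at both distances. In the ZMYND8 KO lists it was near the background at 200 bp and above it at 10 bp.

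Between the libraries of 1 group, recurrence was higher for pericentromeric summits than over the whole list. In SC, 150 pericentromeric summits of each list had a summit of the other replicate within 200 bp, which was 77.7% of replicate 1 and 45.2% of replicate 2, beside 58.7% and 17.6% of all summits. In ZMYND8 KO, 84 of each list had one, which was 77.1% and 79.2%, beside 68.8% and 56.8%.

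Chained within 200 bp, the summits of all lists made 7708 sites, of which 384 were pericentromeric. Of these, 75 were called in all 4 lists (19.5%), beside 3.10% of all sites, so 31.4% of the 239 sites with a summit in every list were pericentromeric. Called in SC replicate 2 alone were 167 pericentromeric sites (43.5%), beside 72.0% of all. Of the 150 pericentromeric sites called in both SC lists, 105 were also called in at least 1 ZMYND8 KO list (70.0%), beside 35.0% of all sites called in both SC lists. At the 75 sites the summits of the 4 lists spanned a median of 15 bp, against 58.5 bp at the other sites of this kind. All summits lay within 10 bp at 32 of the 75 (42.7%), beside 16.3% of all 239 sites called in every list.

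The chromosomes differed widely in their number of pericentromeric summits. A pericentromeric summit was called in any list on 21 of 22 chromosomes, in at least 3 lists on 13 and in all 4 lists on 11. Chromosomes 2, 8 and 10 together held 43.0% and 35.2% of them in SC, and 57.8% and 59.4% in ZMYND8 KO. Chromosomes 4, 5, 9, 13 and 15 had pericentromeric summits in SC replicate 2 alone, between 1 and 8 each, and chromosome 22 had 0.

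Chromosome 2 had 30 (replicate 1) and 49 (replicate 2) pericentromeric summits in SC and 28 and 31 in the ZMYND8 KO lists, the highest count in 3 of the 4 lists. The ZMYND8 KO counts lay close to that of SC replicate 1, and the ratio of the means was 0.747. They made up 19.5% and 10.7% of all summits on chromosome 2 in SC, and 66.7% and 56.4% in ZMYND8 KO. Chromosome 10 had 31 and 43 in SC and 20 and 18 in ZMYND8 KO, all of the latter on the long arm side, with a ratio of 0.514. Chromosome 8 had 22 and 25 against 15 and 14, on both sides of the gap, with a ratio of 0.617. On chromosome 10 and chromosome 8 both ZMYND8 KO counts were below both SC counts, and the same held for all summits on each chromosome. All summits numbered 114 and 403 in SC and 31 and 34 in ZMYND8 KO on chromosome 10. On chromosome 8 they numbered 168 and 473 in SC and 34 and 37 in ZMYND8 KO.

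Smaller sets on chromosomes 11, 18 and 19 were called in every library. Chromosome 11 had 11 and 14 summits in SC and 9 and 8 in ZMYND8 KO. Chromosome 18 had 8 and 14 in SC and 8 and 7 in ZMYND8 KO. Chromosome 19 had 9 and 12 in SC and 7 in each ZMYND8 KO list. Their ratios were 0.680, 0.682 and 0.667. On chromosomes 11 and 19 the SC summits stood high in their lists, with median positions of 6.85% and 2.68% on chromosome 11 and of 4.19% and 2.60% on chromosome 19. All summits, near centromeres or not, numbered 114 and 368 in SC and 24 and 29 in ZMYND8 KO on chromosome 11. They numbered 39 and 105 in SC and 14 in each ZMYND8 KO list on chromosome 18. For chromosome 19 these were 80 and 434 in SC and 15 and 14 in ZMYND8 KO.

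Chromosomes 1, 6, 7 and 17 had lower ratios. The counts were 8, 13, 4 and 5 on chromosome 1, 5, 8, 3 and 2 on chromosome 6, 9, 14, 4 and 3 on chromosome 7, and 15, 34, 6 and 7 on chromosome 17, each time with SC first. These gave ratios of 0.429, 0.385, 0.304 and 0.265, and the last of these, on chromosome 17, was 0.433 without SC replicate 2. On all 4 chromosomes both ZMYND8 KO counts were below both SC counts, and the same held for all summits on each chromosome. All summits numbered 151, 568, 35 and 38 on chromosome 1 and 130, 420, 25 and 28 on chromosome 6. They numbered 91, 314, 14 and 11 on chromosome 7 and 114, 447, 14 and 24 on chromosome 17.

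Chromosomes 16, 20 and 21 stood at the other end. Chromosome 21 had 23 and 30 summits in SC and 1 in each ZMYND8 KO list, a ratio of 0.0377. All summits on chromosome 21 numbered 45 and 80 in SC and 2 in each ZMYND8 KO list. The pericentromeric ones made up 51.1% and 37.5% of these in SC and 50% in each ZMYND8 KO list. Their fall was thus near that of the whole chromosome. Chromosome 20 had 11 and 25 pericentromeric summits in SC and 0 and 2 in ZMYND8 KO, a ratio of 0.0556. They were 13.4% and 9.62% of all summits on chromosome 20 in SC, and 0% and 12.5% in ZMYND8 KO. Chromosome 16 had 8 and 15 pericentromeric summits in SC and 4 and 0 in ZMYND8 KO, a ratio of 0.174. They were 11.8% and 7.65% of all summits on chromosome 16 in SC, and 25% and 0% in ZMYND8 KO. Counts this low turn on single libraries. Without ZMYND8 KO replicate 1 the ratio was 0.111 on chromosome 20 and 0 on chromosome 16, and without ZMYND8 KO replicate 2 it was 0 and 0.348. On chromosome 20 it was 0.0909 without SC replicate 2. The SC summits on these chromosomes also ranked lower than those on chromosome 2, with median positions of 66.1% and 40.3% on chromosome 21, 50.05% and 44.7% on chromosome 20 and 45.9% and 43.8% on chromosome 16, against 13.4% and 7.63% on chromosome 2. The part of the lower rank in the low ZMYND8 KO counts was not tested.

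**Figure D5:**
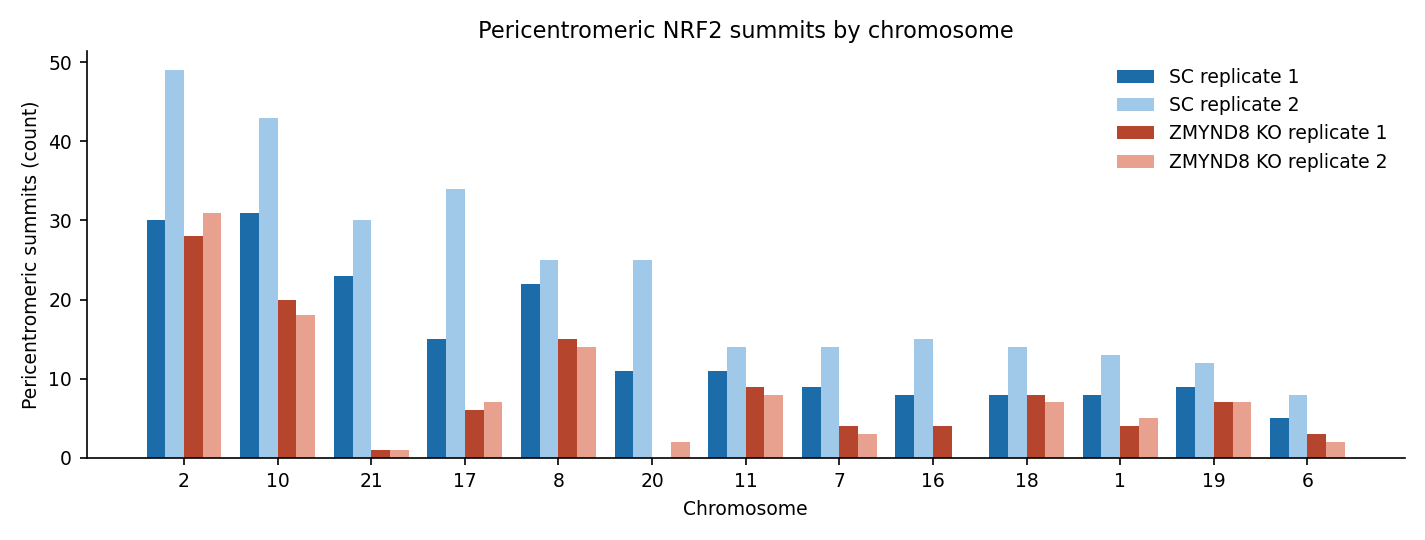
Pericentromeric summits per library (vertical axis, count) on the 13 chromosomes with such summits in at least 3 libraries (horizontal axis, ordered by the SC mean). Chromosome 2 has 28 and 31 in ZMYND8 KO against 30 and 49 in SC, while chromosome 21 has 1 and 1 against 23 and 30.

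Crowding was described by blocks, which are runs of summits of all lists no more than 50 kb apart with at least 5 summits in each SC list. This rule was set after the values had been seen, and it selects on SC counts, so a lower ZMYND8 KO count is partly built in and only blocks are compared with each other. There were 12 pericentromeric blocks, from 7.43 to 52.2 kb long, of which 9 began within 1.6 Mb of a gap midpoint. Together they held 147, 162, 98 and 94 summits, which was 76.2%, 48.8%, 89.9% and 88.7% of the pericentromeric summits of the lists. The ratio of the means was 0.621, and in 9 of the 12 both ZMYND8 KO libraries had 5 summits or more. The 21 blocks of the same kind on chromosome arms held 155, 306, 41 and 40 summits, a ratio of 0.176, and in 1 of them both ZMYND8 KO libraries reached 5. That block, on chromosome 15 from 75664434 to 75722644, had 19, 19, 19 and 16 summits, a ratio of 0.921. Near-equal counts were thus not limited to blocks near centromeres. The median ratio of single blocks was 0.1 on the arms and 0.668 near centromeres.

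The block on chromosome 2, from 92281312 to 92325791, had 28 and 33 summits in SC and 28 and 31 in ZMYND8 KO. All 4 counts lay between 28 and 33 (ratio 0.967), and 20 of its 37 sites were called in every list. Its best site was called at 92318694 in 3 lists and at 92318695 in ZMYND8 KO replicate 1. The ranks of that site were 29, 29, 30 and 16 and the scores 62.4, 69.9, 47.6 and 48.4 with SC first in both cases. At 92316008 to 92316027 the ranks were 28, 37, 33 and 24, and at 92324765 to 92324773 they were 104, 48, 43 and 21. Over the whole block the median position was 11.9% and 3.62% in SC and 22.5% and 26.2% in ZMYND8 KO.

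The block on chromosome 18, from 18512857 to 18520283, was the shortest and had 7 and 8 summits in SC and 8 and 7 in ZMYND8 KO, a ratio of 1. Its best site, at 18518969 to 18518987, ranked 25 and 39 in SC and 32 and 22 in ZMYND8 KO. On chromosome 8 the block on the long arm side, from 46839895 to 46856224, had 13, 10, 9 and 9 summits in the 4 lists, and its site at 46851472 to 46851476 ranked 48, 136, 34 and 30. The block on the short arm side, from 43793836 to 43838705, ended at the stretch without summits and had 9, 12, 6 and 5. Chromosome 8 thus had a block at each end of its gap.

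Chromosome 10 had a pair of blocks on its long arm side. The one from 42528036 to 42546120 had 8, 15, 7 and 10 summits and a site at 42529430 to 42529459 with ranks of 33, 38, 31 and 23. The one nearer to the gap, from 42357062 to 42409271, had 19, 17, 11 and 6. On chromosome 11 the block from 51570138 to 51593164 had 11, 12, 9 and 8 summits. The ratios of these 3 blocks were 0.739, 0.472 and 0.739.

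The block on chromosome 19, from 27732052 to 27740234, had 9, 11, 7 and 7 summits, a ratio of 0.7. Its sites at 27732709 to 27732724 and at 27732052 to 27732148 ranked 24, 33, 28 and 15 and 22, 43, 42 and 29. The block on chromosome 7, from 61967558 to 61982976, had 6, 5, 4 and 3 summits but held the site with the best mean position of all pericentromeric sites called in every list. That site lay at 61968979 to 61968993 and ranked 19 and 26 in SC and 24 and 19 in ZMYND8 KO, with scores of 92.4, 73.5, 54.1 and 46.0. A site of the same block at 61970371 to 61970372 ranked 30, 49, 38 and 36. The 10 sites named from chromosomes 2, 7, 8, 10, 18 and 19 were the best pericentromeric ones by mean position with at most 3 a chromosome. All lay in blocks, as did most pericentromeric sites called in every list.

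The remaining blocks had fewer ZMYND8 KO summits. The block on chromosome 17, from 22245213 to 22262696, had 14, 18, 5 and 7. The added stretch of chromosome 16, from 46388392 to 46432751, had 6, 9, 3 and 0. The block on chromosome 21, from 14338651 to 14351179, had 17, 12, 1 and 1, a ratio of 0.0690. Its best SC summits ranked 353 and 362 and its median positions in SC were 67.6% and 39.5%, lower than in the block on chromosome 2.

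The highest-scoring pericentromeric summit of each list lay on the short arm side of chromosome 6, in a stretch of under 1 kb. It was at 58778528 in SC replicate 1 (score 113.8, rank 15 of 2030), at 58779200 in SC replicate 2 (97.7, rank 19 of 6816), at 58778261 in ZMYND8 KO replicate 1 (62.2, rank 21 of 394) and at 58779191 in ZMYND8 KO replicate 2 (56.6, rank 12 of 477). The nearest pair, in SC replicate 2 and ZMYND8 KO replicate 2, was 9 bp apart, and the others were not within 200 bp of each other. Chromosome 6 had 0 sites called in all 4 lists. At the border of chromosome 1, a place picked after its values had been seen, the best summits were at 121484870 in SC replicate 1 (rank 20) and at 121485305 in SC replicate 2 (rank 40). In ZMYND8 KO they were at 121485297 (replicate 1, rank 36) and 121485298 (replicate 2, rank 71), so 3 of the 4 lists put the summit within 10 bp.

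A smaller share of recurring SC summits lacked a ZMYND8 KO summit within 1000 bp near centromeres than over the whole list. Pericentromeric summits of the ZMYND8 KO lists stood a median of 1023 and 938 bp from their nearest neighbour, and other summits much farther. A ZMYND8 KO summit of a neighbouring site can therefore meet this distance, and the part of crowding in the contrast was not tested. At 200 bp, 45 of 150 pericentromeric sites called in both SC lists had no ZMYND8 KO summit, beside 773 of all 1190. Of the 150 pericentromeric summits of SC replicate 1 that recurred in SC replicate 2, 31 had no ZMYND8 KO summit within 1000 bp (20.7%), beside 58.4% of all recurring summits of that list. They included 9 of the 12 recurring ones on chromosome 21 and 6 of the 8 on chromosome 20. Of the 31, 3 ranked among the first 300 of SC replicate 1. The highest-ranking was on the short arm of chromosome 21 at 9827258, with rank 171, and at 9827427 in SC replicate 2, with rank 284, and the nearest ZMYND8 KO summit was 4.51 Mb away across the gap.

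The other high-ranking ones lay on chromosomes 6, 10, 20 and 21. On chromosome 6 a summit at 58774536 (rank 227) and 58774532 (rank 242) was 1740 bp from the nearest ZMYND8 KO summit. On chromosome 21 a neighbour of the leading one was called at 9826920 (rank 277) and 9826971 (rank 445). On chromosome 20 a summit at 24615659 (rank 449) and 24615655 (rank 1202) was 1.69 Mb from the nearest ZMYND8 KO summit, while one on chromosome 10 at 42393814 (rank 473) and 42393818 (rank 1672) was 1085 bp from it. On the short arm side of chromosome 21 there were 5 and 16 summits in the SC lists and 0 in both ZMYND8 KO lists.

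Few pericentromeric summits of the ZMYND8 KO lists lacked one in SC. At 200 bp, 9 of replicate 1 (8.26%, beside 8.88% of all its summits) and 6 of replicate 2 (5.66%, beside 11.9%) had no SC counterpart, so the share of replicate 1 was near the background. In crowded stretches an SC summit of a neighbouring site can meet a distance of 1000 bp, so a match there need not be the same site. At 1000 bp, 1 of each had none (0.917%, beside 2.54%, and 0.943%, beside 4.19%). These were at 25265145 on chromosome 17 (rank 330 of 394), which lay 1978 bp from the nearest SC summit, and at 58776276 on chromosome 6 (rank 65 of 477), 1740 bp from it. Of the 11 pericentromeric sites with no SC summit, 5 lay on chromosome 2. That chromosome held 25.7% and 29.2% of the pericentromeric summits of the ZMYND8 KO lists. Of the 11, 4 were called in both ZMYND8 KO lists, 5 in replicate 1 alone and 2 in replicate 2 alone. Over all sites with no SC summit these numbers were 10, 23 and 45.

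The limit of 3.5 Mb passed through thinly filled sequence. Between 3 and 3.5 Mb from a midpoint there were 9 and 38 summits in the SC lists and 1 in each ZMYND8 KO list. Between 3.5 and 4 Mb, just outside the rule, there were 8 and 27 in SC and 0 in both ZMYND8 KO lists. The farthest summits inside the limit were 3.48, 3.49, 3.48 and 3.26 Mb from a midpoint in the 4 lists, and the nearest outside it 3.54, 3.51, 4.14 and 4.14 Mb.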

How the data were processed

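The authors called peaks in each library with MACS2 and deposited 1 summit per peak with a score. The lowest score lies just above the −log10 of 0.05, so the deposited values were taken for −log10 q-values, a reading that the sources used here do not state. The submitters' processing notes name FastQC 0.11.2, Bowtie2 2.2.3, Picard 1.127 and MACS2 2.0.10, and both hg19 and hg38 with no role. The empty stretches at the hg19 gaps fixed the build here. The lists hold no read counts, so depth is unknown, and intervals cover counting error over summits only.

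Libraries were grouped by their labels. Computed here were the number of pericentromeric summits, their share of the list with Wilson 95% intervals, their rank by score, their distance from the gap midpoint, and summits of other lists within 200, 1000 and 10 bp. Groups were compared by exact permutation tests over libraries, two-sided. Sites named were the highest-scoring pericentromeric summit of each list, the 10 pericentromeric sites called in all lists with the best mean position and at most 3 a chromosome, the 5 highest-ranking recurring SC summits without a ZMYND8 KO summit within 1000 bp, and ZMYND8 KO summits without an SC summit at that distance. Chromosomes with summits in at least 3 lists were given with their counts. The members and lists were chosen with earlier results of these data known.

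Alternatives were other windows and matching distances, a minimum score of 10, lists of the 300 best summits, summits within 500 bp counted once, and leaving out chromosomes or libraries. The functions were tested on simulated data. Scripts ran under Python 3.11.15 with matplotlib 3.10.9, pandas 2.3.3, scipy 1.17.1 and numpy 2.4.6. Sequence content was not analysed here, since no genome of this build was used.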

Additional observations from a re-analysis of the deposited data

Results flagged for a closer look

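Chromosome X lies outside the rule, which covers chromosomes 1 to 22, and was singled out because it carried a dense block of summits in all 4 lists. From 61682317 to 61725543, the SC lists had a block of 16 (replicate 1) and 20 (replicate 2) summits, and the ZMYND8 KO lists 9 (replicate 1) and 10 (replicate 2). All summits of chromosome X numbered 30, 51, 13 and 13 in the same lists. The best ranks in the block were 69 and 30 in SC and 84 and 72 in ZMYND8 KO. A summit of the other group lay within 200 bp of 10 summits of each SC list and of 9 of each ZMYND8 KO list. None of these summits was counted as pericentromeric above. They are part of the list totals, the ranks, the other summits and the 7708 sites.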

How the results depend on the processing

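The pericentromeric share stayed higher in ZMYND8 KO under all 14 alternatives, with differences from 5.17 to 20.5 percentage points. The ratio of count ratios ran from 1.30 to 6.40 over 12 alternatives, and the numbers among the 100 highest-scoring stayed within 1.5 times of those reported. On lists of the 300 highest-scoring, the count ratio turned to 1.21 and the difference in median position to -5.83, where all lists are equally long by construction. The shares of SC replicates 1 and 2 with a ZMYND8 KO counterpart then were 84.7% and 85.3%, and of ZMYND8 KO replicates 1 and 2 with an SC counterpart 72.8% and 75.6%. With a minimum score of 10 the same shares were 64.3%, 59.1%, 83.3% and 85.9%. A window of 2.5 Mb gave 45.9% for SC replicate 2, and one of 5 Mb gave 46.0% and 27.3% for the SC replicates. Matching within 1000 bp gave 67.4%, 45.5%, 99.1% and 99.1%, and within 500 bp 97.2% for ZMYND8 KO replicate 1. The shares found in the other replicate were 88.6%, 57.5%, 84.4% and 88.7% within 1000 bp, and 50.9% for SC replicate 2 within 500 bp. Wider matching can only add matches. On both kinds of shortened list the SC shares were above those of the whole lists and the ZMYND8 KO shares below them. The causes of these moves were not tested.

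Leaving out 1 library in turn, the difference in share ran from 15.0 to 20.5 percentage points, the count ratio from 0.324 to 0.557, the ratio of count ratios from 3.12 to 6.40 and the difference in median position from 3.93 to 7.07. Between 46.1% and 48.2% (SC replicate 1) and between 29.8% and 30.1% (SC replicate 2) then had a ZMYND8 KO counterpart. Between 85.3% and 90.8% (ZMYND8 KO replicate 1) and between 84.0% and 93.4% (ZMYND8 KO replicate 2) had an SC counterpart. The ratio of count ratios was 3.12 without SC replicate 2, against 5.19 with all libraries. These alternatives leave 1 library in a group and were not tested.

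Paired by replicate number, the difference in share was 18.2 and 17.4 percentage points, with a mean of 17.8, and the count ratio 0.565 and 0.319, with a mean of 0.442 (two-sided p = 0.50 by an exact permutation of signs, and 2 pairs cannot reach a lower one). Deviations of same-numbered libraries over 21 chromosomes correlated with r = 0.665, a description only, since no label ties a replicate number to a batch. Without chromosome 21, and with only chromosomes 1 to 22 in the list total, both added after the data were seen, the share stayed higher in ZMYND8 KO. The planned analysis of sequence content was not run. Unknown depth, 2 libraries a group and the absence of an input library from this work limit every comparison.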
